A study of Mus musculus with 6 samples.

Results

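MicroRNA genes were read through 643 probe sets of an expression array, each annotated with exactly 1 gene symbol of the Mir or Mirlet kind, out of 65956 probe sets tested. These probe sets stood for 597 symbols, and 42 symbols had more than 1 probe set. The cells were bone marrow-derived macrophages (BMDMs) of adult C57BL/6J mice, which had been grown for 5 days in 20 ng/ml M-CSF, the growth factor that drives macrophage differentiation. They received recombinant GAS6 (rGAS6), which binds the receptor MerTK, and RNA was taken 24 h after a period of hypoxia and reoxygenation (HR) that stands in for ischemia and reperfusion. Of the 6 arrays, 3 were labelled ATF3-CKO and 3 were labelled WT. ATF3-CKO mice carried floxed Atf3 alleles and a Cre driven from the myeloid gene Lyz2, and WT mice were littermates with the floxed alleles and no Cre, per the study's methods. An effect of Cre alone cannot be told apart from one of the deletion. The labels number the arrays as biological replicates, and a legend of the study counts them as mice.

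A microRNA starts as a longer primary transcript, from which the nuclear enzyme Drosha with its partner DGCR8 cuts a hairpin, the precursor. Dicer trims the exported hairpin to a short mature strand, which Argonaute proteins hold while its seed, the bases near its 5′ end, pairs with messenger RNAs and lowers their translation or stability. In macrophages microRNAs are known for tuning inflammatory signalling, with miR-146a acting as a brake on Toll-like receptor signalling through Traf6 and Irak1. The RNA here was total RNA amplified with a whole-transcript kit, so a probe set on a hairpin gene cannot separate the primary transcript, the precursor and the mature strand.

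The differences below are those of probe sets on microRNA genes, which cannot read the mature strands apart. Mature strands follow where a probe set passed the test, was above the median level of all probe sets and lay on its microRNA's chromosome. They are from RefSeq (GRCm38.p6), in 5′ to 3′ direction, with the seed (bases 2 to 8) in capitals. The first 5 belong to genes with a higher signal on the arrays labelled ATF3-CKO and the others to genes with a lower signal.
miR-146a-5p: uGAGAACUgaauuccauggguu
miR-146a-3p: cCUGUGAAauucaguucuucag
miR-466k: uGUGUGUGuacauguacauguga
miR-7055-5p: uCAGUGGGuuaucugaguugg
miR-7055-3p: uUGCUACUuugauaccccaccag
miR-1933-5p: aGUCAUGGuguucggucuuaguuu
miR-1933-3p: cCAGGACCaucagugugacuau
miR-7004-5p: uUCCGUGGaugaggccugugccgu
miR-7004-3p: cCCACUCCcuccuucacgcag
miR-5104: cUGUGCUAgugagguggcucagca
miR-5123: uGUAGAUCcauaugccauggugug
miR-1192: aAACAAACaaacagaccaaauu
miR-677-5p: uUCAGUGAugauuagcuucuga
miR-677-3p: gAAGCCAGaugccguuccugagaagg

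No strand shown shares its seed with another strand shown. Other measured genes do share some of these seeds, Mir146b with Mir146, Mir194-2 with Mir7055 and Mir495 with Mir1192. The strand miR-146a-5p lies at chr11:43374435-43374456 on the minus strand and miR-466k at chr3:85467396-85467418 on the plus strand (GRCm38.p6). Of the 597 symbols, 486 had an entry among the RefSeq microRNA sequences, and Mir30b, Mir30d, Mir466h and Mir467e are named only.

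Values are log2 intensities, and the array medians ran from 4.33 to 4.42 on the arrays labelled ATF3-CKO and from 4.22 to 4.34 on the WT arrays. The targeted gene went against its label. Atf3 read 9.20, 9.26 and 9.25 on the arrays labelled ATF3-CKO and 8.56, 8.46 and 8.38 on the WT arrays, a difference of 0.77 (SE 0.08, adjusted p = 0.00538), so that every direction given here rests on labels which this gene did not bear out. A single probe set reads Atf3, and whether it covers the floxed exons is unknown, so it may check nothing. All 8 macrophage markers lay above the median level of all probe sets, and of these the integrin gene Itgam was 12.35-fold lower (adjusted p = 1.3e-04) while Mertk was 2.57-fold higher (adjusted p = 0.0499) and Cd14 2.11-fold higher (adjusted p = 0.0225). Of 10 neutrophil markers, 6 were lower, 0 were higher, Elane and Mpo lay below that median, and the log2 of their summed intensity was 11.66 to 13.83 on the arrays labelled ATF3-CKO and 16.81 to 17.48 on the WT arrays. The 4 fibroblast and stromal markers measured had 0 calls by limma, before adjustment 2 had a higher signal with p under 0.05, and the log2 of their summed intensity was 8.19 to 9.80 on the arrays labelled ATF3-CKO and 7.65 to 8.24 on the WT arrays. The part of any of these markers' cells in the microRNA differences was not tested. In bulk RNA, fewer cells of a type and less RNA per cell cannot be told apart.

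Most microRNA probe sets did not rise above the brightest background control. Their median level was 4.61, against 4.32 over all probe sets and 4.75 over those with 1 symbol. Outside the Mir297, Mir466, Mir467 and Mir669 families, the other 556 had a median level of 4.24, and 47.84% of them lay above 4.32. The mean over the 6 arrays exceeded the median level of all probe sets (4.32) for 349 of the 643 (54.28%), and 244 lay above the brightest of 23 background control probe sets (5.3). A further 62 lay below the median of those background controls (2.77). Of 19 microRNAs typical of other tissues that could be read, such as liver Mir122 and the heart muscle Mir208a, 3 lay above the median level and 0 passed the test. Among the 5 host transcripts named after a microRNA, such as Mir100hg, 1 lay above the median level. Brightness of different probe sets does not rank the abundance of their microRNAs.

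**Figure D1:**
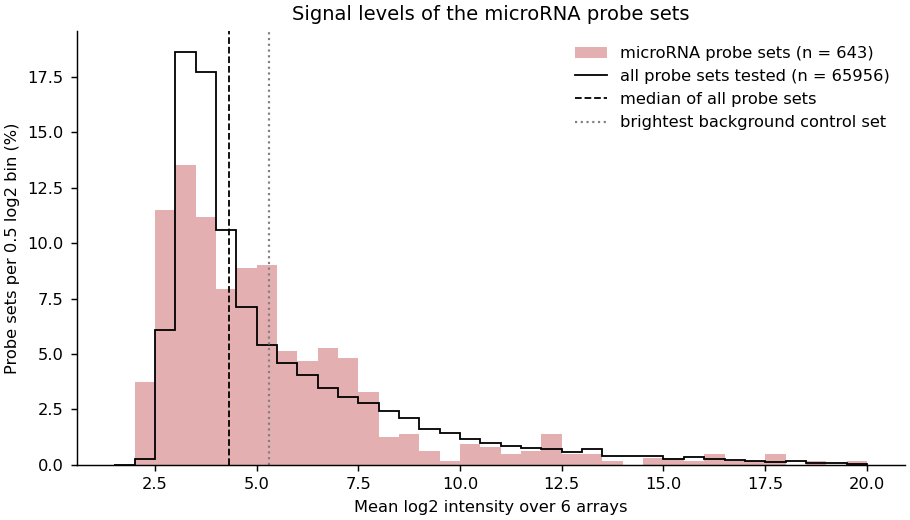
Share of probe sets (y, percent per bin of 0.5) by mean log2 intensity over the 6 arrays (x) for the 643 microRNA probe sets (filled) and all 65956 probe sets (line). The dashed line is the median of all probe sets (4.32), above which 349 microRNA probe sets lay, and the dotted line is the brightest background control (5.3).

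The brightest microRNA probe sets were Mir3473a (19.51), Mir3470b (18.96), Mir669e (17.87), Mir1954 (17.78), Mir703 (17.63), a second Mir3470b probe set (17.09), Mir692-1 (16.54) and Mir3471-1 (16.30). Mir3473a differed little, with 19.41, 19.66 and 19.47 on the arrays labelled ATF3-CKO and 19.46, 19.50 and 19.54 on the WT arrays. Its groups overlapped and its difference was 0.02 (adjusted p = 0.941), a sign that turned after quantile normalization (-0.01) and after median-centring (-0.07). Mir703 read 17.81, 17.83 and 18.09 on the arrays labelled ATF3-CKO against 17.59, 17.10 and 17.35 on the WT arrays, which did not overlap, yet its difference of 0.56 missed the threshold (adjusted p = 0.095). Of the 8 brightest, Mir669e and Mir3471-1 passed.

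The test asked which microRNA probe sets differ between rGAS6-stimulated macrophages labelled ATF3-CKO and WT. With limma over all probe sets and a Benjamini-Hochberg adjusted p under 0.05, 19 microRNA probe sets passed (2.95%), against a background of 2.85% of all probe sets. In the higher direction 11 passed (1.71%, background 1.17%), and in the lower direction 8 passed (1.24%, background 1.68%). Above the median level the shares were 5.16% (18 of 349) and 5.51% of all probe sets that bright (2.20% higher and 3.31% lower). Before adjustment, p was under 0.05 for 100 higher and 23 lower microRNA probe sets, against a background of 11.6% higher and 6.20% lower over all probe sets. The share of microRNA probe sets called was thus near that of the array as a whole. The median difference was 0.07 over the microRNA probe sets and 0.06 over all probe sets, and the differences ranged from -1.59 to 1.77.

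Scaling moved the balance of directions. After median-centring 7 were higher and 8 lower, and after quantile normalization 7 were higher and 7 lower. Over all probe sets the split was 773 higher and 1108 lower, against 447 and 1297 after median-centring. A fold of 2 or more was reached by 5 microRNA probe sets in the higher direction (background 1.18%) and 4 in the lower direction (background 0.838%). The groups did not overlap for 145 (22.6%), against a background of 24.0%, and these were 117 higher (background 16.5%) and 28 lower (background 7.51%). All 19 that passed were among them.

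**Figure D2:**
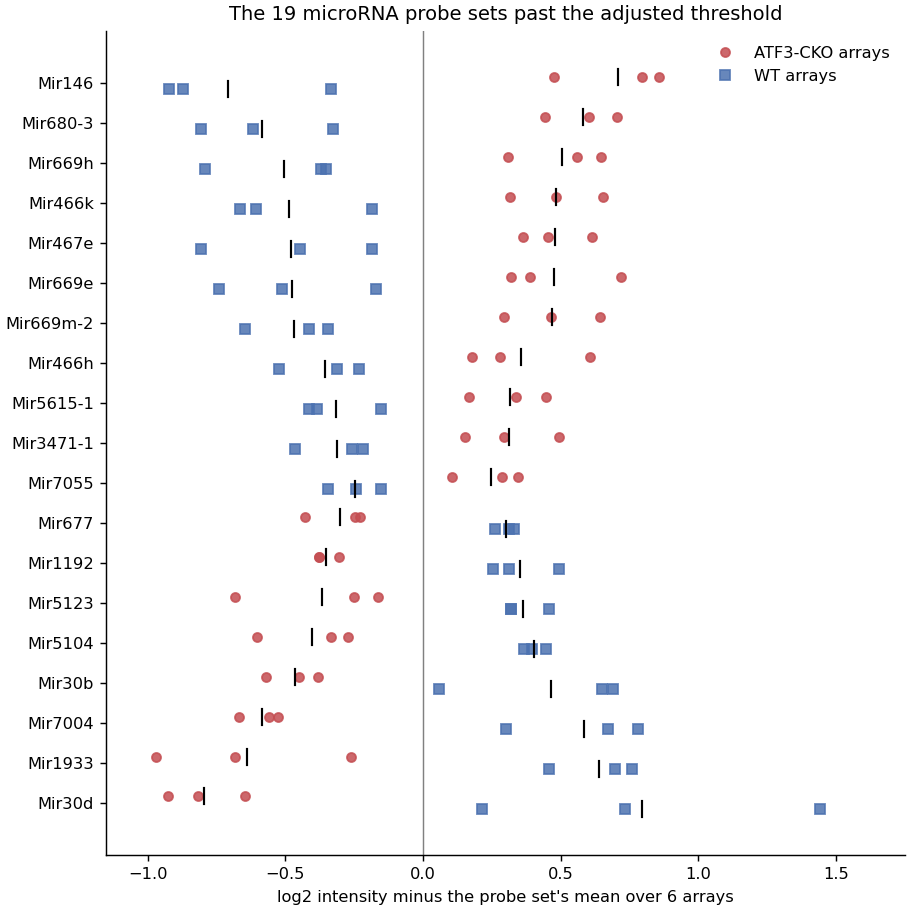
Log2 intensity on each array minus the mean of that probe set over the 6 arrays (x) for the 19 microRNA probe sets with an adjusted p under 0.05 (y), with arrays labelled ATF3-CKO as circles and WT arrays as squares, and group means as short bars. In every row the 3 arrays of one group lie on the other side of 0 from those of the other, from Mir146 at the top (1.42 higher) to Mir30d at the bottom (1.59 lower).

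Mir146, the gene of miR-146a, had the largest increase among those that passed. It read 6.86, 6.92 and 6.54 on the arrays labelled ATF3-CKO and 5.19, 5.73 and 5.14 on the WT arrays. Every array labelled ATF3-CKO lay above every WT array, and the lowest of them exceeded the highest WT array by more than the SD of either group. The means were 6.77 ± 0.20 and 5.36 ± 0.32 (SD, n = 3 each), a 2.67-fold difference (log2 1.42, SE 0.18, adjusted p = 0.0106). WT 1 and WT 3 lay below the brightest background control (5.3), so the WT side of this fold was near background. The call was lost without WT 1 (adjusted p = 0.0503) or ATF3-CKO 2 (adjusted p = 0.0578). Mir146b, the gene of the closely related miR-146b on another chromosome, read 4.22 ± 0.24 on the arrays labelled ATF3-CKO and 4.19 ± 0.12 on the WT arrays (SD, n = 3 each), below the median level, and its difference was 0.03 (adjusted p = 0.942).

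Mir30b and Mir30d are neighbours on chromosome 15 and belong to the miR-30 family, whose members share a seed. They formed the only cluster of microRNA genes, within 10 kb of each other, in which more than 1 probe set was lower. Mir30d read 8.24, 8.41 and 8.13 on the arrays labelled ATF3-CKO and 9.79, 9.27 and 10.50 on the WT arrays, and Mir30b read 6.57, 6.38 and 6.50 against 7.60, 7.01 and 7.64. For both, all 3 arrays labelled ATF3-CKO lay below all WT arrays, with a wider spread among the WT arrays. Mir30d was 3.01-fold lower (log2 -1.59, SE 0.28, adjusted p = 0.0356), the largest decrease of any microRNA probe set. Mir30b was 1.91-fold lower (log2 -0.93, SE 0.17, adjusted p = 0.0413).

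Both calls were lost in most of the 6 fits without 1 array. Over these fits the difference ran from -1.88 to -1.27 for Mir30d and from -1.13 to -0.82 for Mir30b. Mir30d missed the threshold without WT 1 (adjusted p = 0.111) or any 1 of the arrays ATF3-CKO 1 (0.0927), ATF3-CKO 2 (0.111) and ATF3-CKO 3 (0.139). Mir30b missed it without any array but WT 2, with adjusted p from 0.0684 without WT 3 to 0.142 without ATF3-CKO 3. The other genes of the family were dimmer and 0 of them passed. Mir30a read 3.43, 3.24 and 3.15 on the arrays labelled ATF3-CKO and 3.62, 3.71 and 3.76 on the WT arrays, without overlap but below the median level (difference -0.42, adjusted p = 0.0777). Mir30c-1 (0.05, adjusted p = 0.868) and Mir30e (0.30, adjusted p = 0.262) had positive differences, and Mir30c-2 was at -0.03 (adjusted p = 0.942).

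Of the 8 lower probe sets, 6 lie within another measured gene on the same strand in RefSeq. That held for 167 of the 563 microRNA symbols read on their own chromosome, and 7 of those 167 passed in either direction. Mir1933 lies in Ugp2, which encodes the enzyme that makes UDP-glucose. It read 8.31, 7.60 and 7.89 on the arrays labelled ATF3-CKO and 9.27, 9.03 and 9.33 on the WT arrays. The groups did not overlap, and Mir1933 was 2.42-fold lower (log2 -1.28, SE 0.18, adjusted p = 0.0169), a call lost without WT 1 (adjusted p = 0.0758) or ATF3-CKO 3 (adjusted p = 0.0898). Ugp2 itself read 11.02, 10.54 and 11.04 on the arrays labelled ATF3-CKO and 12.28, 12.08 and 12.25 on the WT arrays, 2.53-fold lower (adjusted p = 0.00637). For both, ATF3-CKO 2 was the lowest array and WT 2 the lowest of its group. The highest array of each group was not the same for the gene and the microRNA.

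Mir1192 lies in Klf9, a transcription factor gene that responds to glucocorticoids. It read 6.01, 6.01 and 6.08 on the arrays labelled ATF3-CKO and 6.88, 6.64 and 6.70 on the WT arrays. The groups were well apart, with a fold of 1.63 (log2 -0.70, SE 0.09, adjusted p = 0.011), lost without ATF3-CKO 2 (adjusted p = 0.0513) or ATF3-CKO 3 (adjusted p = 0.0583). Klf9 read 8.08, 7.76 and 7.95 on the arrays labelled ATF3-CKO and 9.95, 9.27 and 9.50 on the WT arrays, 3.12-fold lower (adjusted p = 0.00611). Within the WT group, WT 1 was the highest and WT 2 the lowest for the gene and for the microRNA alike. Within the group labelled ATF3-CKO, the highest array was not the same for the gene (8.08) and the microRNA (6.08).

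Mir5104 lies in Zc3h12d, a gene of the Regnase family of RNA-degrading proteins. Its values were 5.63, 5.36 and 5.69 on the arrays labelled ATF3-CKO and 6.36, 6.41 and 6.33 on the WT arrays. The WT arrays were tight (SD 0.04) and all above the arrays labelled ATF3-CKO, and the difference was -0.81 (SE 0.11, adjusted p = 0.0119), lost only without WT 1 (adjusted p = 0.0573) among the 6 omissions. Zc3h12d read 5.80, 6.13 and 5.73 on the arrays labelled ATF3-CKO and 6.66, 7.17 and 6.53 on the WT arrays. Its groups did not overlap either, but its difference of -0.90 just missed the threshold (adjusted p = 0.0585). The order of the WT arrays was the same for gene and microRNA. Among the arrays labelled ATF3-CKO, the lowest for Mir5104 (5.36) was the highest for Zc3h12d (6.13).

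For Mir677 and Mir5123 the containing gene did not pass. Mir677, in the ATP synthase gene Atp5b, read 6.58, 6.40 and 6.60 on the arrays labelled ATF3-CKO and 7.14, 7.09 and 7.16 on the WT arrays. Its groups were apart (difference -0.61, SE 0.09, adjusted p = 0.016), with the call lost without WT 1 (adjusted p = 0.0768) or ATF3-CKO 3 (adjusted p = 0.0641). Atp5b read 11.25, 11.21 and 11.29 on the arrays labelled ATF3-CKO against 11.42, 11.42 and 10.96 on the WT arrays, which overlapped (difference -0.02, adjusted p = 0.952). Mir5123, in the galactosyltransferase gene B4galt1, read 10.21, 10.30 and 9.78 on the arrays labelled ATF3-CKO and 10.92, 10.78 and 10.78 on the WT arrays. Its difference was -0.73 (SE 0.14, adjusted p = 0.048), which passed in none of the 6 fits without 1 array (adjusted p from 0.0699 to 0.156) nor with quantile normalization (0.0633), and B4galt1 was at -0.30 (adjusted p = 0.398).

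Mir7004 lies in Atp9a, a gene for a P-type ATPase of membranes. It read 3.80, 3.66 and 3.77 on the arrays labelled ATF3-CKO and 5.0, 5.11 and 4.63 on the WT arrays. The groups were apart, but all 6 arrays lay below the brightest background control (5.3), and the mean of 4.33 exceeded the median level only through the WT arrays. The difference was -1.17 (SE 0.13, adjusted p = 0.00744), and no fold is given for values in the range of the background controls. It had the smallest adjusted p of the 19 and was the only one to pass in each of the 6 fits without 1 array (adjusted p from 0.00346 to 0.0478). Atp9a read 3.88, 3.91 and 3.93 on the arrays labelled ATF3-CKO against 3.83, 3.82 and 3.86 on the WT arrays, below the median level, with a difference of 0.07 (adjusted p = 0.674).

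Looked at from the side of the containing genes, 167 microRNAs lay within 149 measured genes on the same strand. Of these genes 98 lay above the median level, and 12 of the 149 passed the test (8.05%), 10 lower and 2 higher. Of all probe sets 2.85% passed, of those above the median level 5.51%, and of those with 1 symbol 1148 of 30646. Each gene was read by its brightest probe set with 1 symbol, so these shares are not of like sets. For 2 of the 12, Ugp2 and Klf9, the microRNA passed too. Pde2a, a phosphodiesterase gene that contains Mir139, read 6.58, 7.05 and 6.68 on the arrays labelled ATF3-CKO and 11.74, 11.18 and 11.14 on the WT arrays, a 24.01-fold decrease (adjusted p = 2.0e-04). Mir139 read 6.81, 6.94 and 6.77 on the arrays labelled ATF3-CKO against 6.86, 6.85 and 6.68 on the WT arrays. Its groups overlapped and its difference was 0.04 (SE 0.09, adjusted p = 0.855), although its level of 6.82 was above the brightest background control. Dst, a cytoskeletal linker gene, was higher by 2.52 (adjusted p = 2.5e-04), and its Mir6896 was at 0.41 (adjusted p = 0.171). Srebf2, a transcription factor gene of cholesterol synthesis, was lower by 0.79 (adjusted p = 0.0428), and its Mir33, at a level of 3.37, was at -0.02 (adjusted p = 0.972). The call of Srebf2 was lost with quantile normalization (adjusted p = 0.0555), and without any array but WT 3 (adjusted p from 0.0837 to 0.145).

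**Figure D3:**
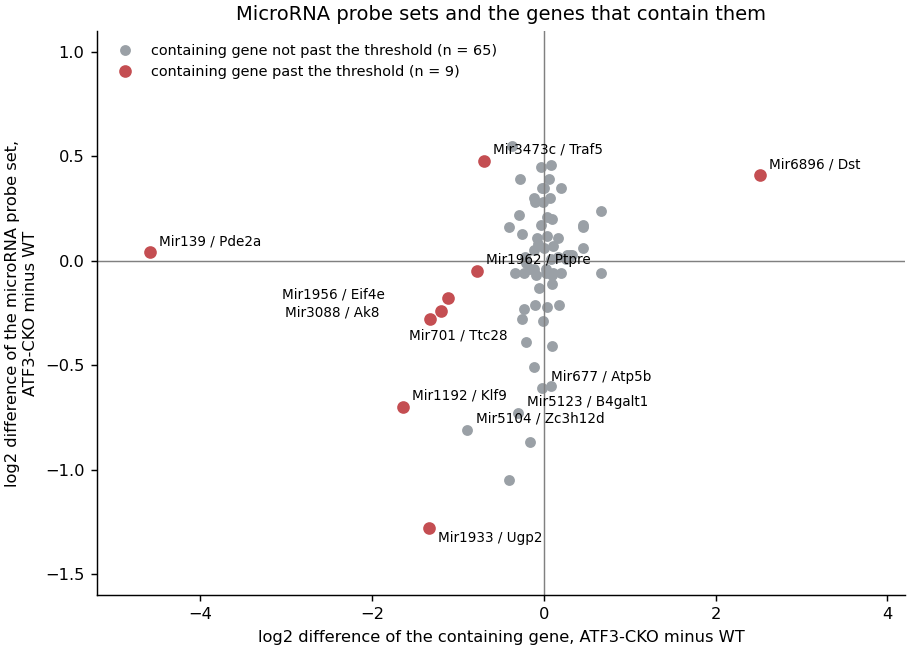
Log2 difference, ATF3-CKO minus WT, of the microRNA probe set (y) against that of the gene that contains it on the same strand (x), for the 74 pairs with both above the median level, with the 9 pairs whose gene passed the test in red. Mir1933 with Ugp2 and Mir1192 with Klf9 lie low on both axes, while Mir139 stays near 0 beside the fall of Pde2a (-4.59).

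In the 74 same-strand pairs with both probe sets above the median level, the difference had the same sign in 44. Of the 27 measured pairs from a list of well-known host genes, such as Mrc1 with Mir511 and Evl with Mir342, 14 had the same sign. By RefSeq position 22 of the 27 lay on the same strand, 13 of them with the same sign, 1 lay on the opposite strand and 4 were of unknown strand. Of 25 measured genes on that list, Pde2a and Srebf2 were lower and 0 were higher. At an unadjusted p under 0.05, 3 were higher and 8 lower (background 11.6% and 6.20%). These points share the 6 arrays and are a description only.

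Of the 11 higher probe sets, 6 belong to the Mir466, Mir467 and Mir669 families, which with Mir297 are present in mouse as many near-identical copies. These 4 families gave 87 probe sets, of which 83 lay above the median level and 6 were higher and 0 lower (background above the median level 2.20% and 3.31%). Their median difference was 0.24 (0.22 after quantile normalization and 0.16 after median-centring). Probe sets for near-identical copies can read each other's transcripts, and 66 of the 643 microRNA probe sets held the same 6 values as another, in 24 groups, so members of a family are not separate measurements. In distinct rows of values, the 4 families gave 65 rows, 6 higher and 0 lower. None of the 19 probe sets that passed shared its values.

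The largest cluster of microRNA genes lies within Sfmbt2, a gene of the Polycomb group on chromosome 2, and was read by 68 probe sets spread over 51.5 kb. Of these, 66 lay above the median level and 2 passed, both higher (background above the median level 2.20% higher and 3.31% lower). Mir467e read 10.55, 10.64 and 10.80 on the arrays labelled ATF3-CKO and 9.74, 9.38 and 10 on the WT arrays, without overlap (difference 0.96, SE 0.16, adjusted p = 0.0296). Mir466h read 9.66, 10.09 and 9.76 against 9.25, 8.96 and 9.17 on the WT arrays, also apart (difference 0.71, SE 0.14, adjusted p = 0.0466). Mir467e passed only without WT 2 or WT 3 among the 6 omissions (highest adjusted p = 0.124, without ATF3-CKO 3), and Mir466h in none of them (adjusted p from 0.063 to 0.134), nor with quantile normalization (0.0624).

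Across the cluster the differences ran from -0.30 to 0.96, with a median of 0.16 over the 68 probe sets. Over its 46 distinct rows of values the median was 0.31, and 38 were positive (82.61%). The share that was positive was 65.81% over all probe sets and 58.05% over those above the median level. The median over the 68 was 0.11 after quantile normalization and 0.08 after median-centring. The middle of the cluster held the repeated copies of Mir466b, Mir467a and Mir669a, whose differences lay near 0, with 9 Mir669a probe sets at an identical -0.11 (adjusted p = 0.672). Sfmbt2 itself read 6.12, 6.02 and 5.95 on the arrays labelled ATF3-CKO and 6.30, 6.33 and 6.16 on the WT arrays. It did not pass (difference -0.23, adjusted p = 0.23), and its sign was opposite to that of the 2 microRNA probe sets that did.

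**Figure D4:**
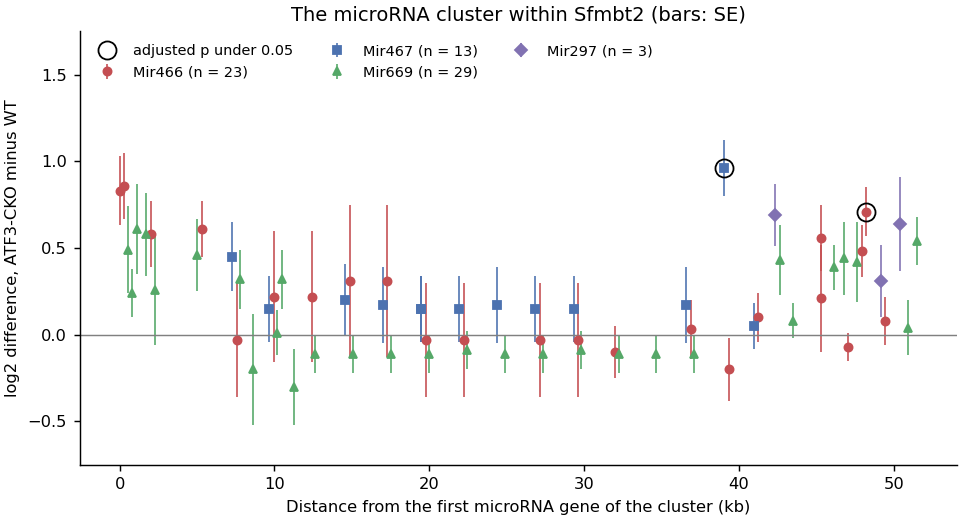
Log2 difference, ATF3-CKO minus WT, with its SE (y) for 68 probe sets of the microRNA cluster within Sfmbt2, by distance from its first microRNA gene in kb (x), with symbols for the 4 families and rings for the 2 that passed. Mir467e (0.96) and Mir466h (0.71) are ringed, and most of the repeated copies in the middle lie near 0.

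Probe set identifiers name a chromosome, apart from 37 that were unplaced, and for 34 of the 643 this was not the chromosome of the microRNA in RefSeq. The identifiers matched RefSeq for 99.0% of 30314 probe sets with 1 symbol. The 34 were bright, with a median level of 12.22 and a median difference of 0.60, and 27 lay above the median level of all probe sets. Of the 34, 5 passed, all higher (background above the median level 2.20% higher and 3.31% lower). The 34 gave 30 distinct rows of values, with a median level of 11.35 and a median difference of 0.38. The 5 that passed were Mir680-3, Mir669h, Mir669e, Mir669m-2 and Mir3471-1, and each of these symbols also had a probe set on its own chromosome. The grouping by chromosome was made after the values were seen and carries no test.

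For these 5 symbols the off-chromosome probe set was brighter and passed, and the one on the microRNA's own chromosome was dimmer, positive and did not pass. Mir680-3 read 10.11, 10.37 and 10.27 on the arrays labelled ATF3-CKO and 9.34, 8.86 and 9.05 on the WT arrays through the chromosome 10 probe set, 2.24-fold higher (log2 1.17, SE 0.14, adjusted p = 0.00835). Through the probe set of its own chromosome 12 it read 7.30, 7.44 and 7.36 on the arrays labelled ATF3-CKO and 7.0, 6.50 and 6.93 on the WT arrays. The groups were apart in both, and the second difference was 0.56 (adjusted p = 0.0893). All 6 probe sets of the Mir680 genes had positive differences, of which 1 passed, also after quantile normalization and median-centring.

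Mir669h differed by 1.01 through the off-chromosome probe set (adjusted p = 0.0192) and by 0.54 through its own (adjusted p = 0.101). Mir669e, near the top of the scale at 18.59, 18.26 and 18.19 on the arrays labelled ATF3-CKO and 17.70, 17.13 and 17.36 on the WT arrays, differed by 0.95 (adjusted p = 0.037), and by 0.24 through its own (adjusted p = 0.425), which lay at 5.22. In Mir669m-2 the difference was 0.94 at a level of 16.20 (adjusted p = 0.0121) and 0.44 at 6.39 (adjusted p = 0.327). Mir3471-1 had 0.63 at 16.30 (adjusted p = 0.04) and 0.71 at 7.86 (adjusted p = 0.128). The calls of these 5 held in 5 (Mir680-3), 4 (Mir669m-2), 3 (Mir669h), 1 (Mir669e) and 0 (Mir3471-1) of the 6 fits without 1 array. Mir680-3 missed only without ATF3-CKO 3 (adjusted p = 0.0543), and Mir669m-2 only without ATF3-CKO 2 (0.0591) or ATF3-CKO 3 (0.0583). Mir669h missed without WT 1 (0.0524), ATF3-CKO 2 (0.0869) or ATF3-CKO 3 (0.0952), Mir669e without any array but WT 1 (up to 0.111), and Mir3471-1 without any array (up to 0.129). With median-centring Mir669e (0.0581) and Mir3471-1 (0.07) missed too, and with quantile normalization Mir3471-1 (0.125).

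At a level of 12 or more there were 31 microRNA probe sets, 20 of them on another chromosome or with none in the identifier. Of the 31, 30 had a positive difference (96.77%, against 65.57% of all probe sets at that level), 5 were higher and 0 lower, with a median of 0.67 (0.63 after quantile normalization and 0.59 after median-centring). All 3204 probe sets at that level had a median of 0.16, with 168 higher and 133 lower. The 31 came down to 26 distinct rows of values, 25 of them positive, with a median of 0.57. This cut in level was not planned beforehand and carries no test. Mir684-1 and Mir684-2 gave 7 of the 31, with differences from 0.93 to 0.97 and groups that did not overlap, and 0 of these passed. The 5 identical Mir684-1 probe sets read 12.64, 12.39 and 13.10 on the arrays labelled ATF3-CKO and 11.89, 11.03 and 12.33 on the WT arrays, a spread within the WT group wide enough to leave the adjusted p at 0.192.

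**Figure D5:**
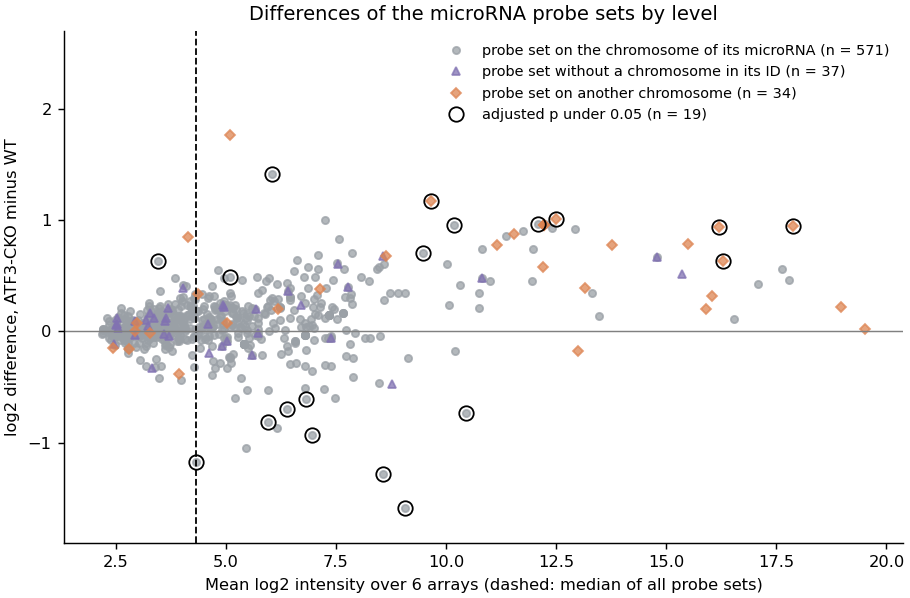
Log2 difference, ATF3-CKO minus WT (y), against the mean log2 intensity over the 6 arrays (x) for the microRNA probe sets, with rings on the 19 that passed. Symbols show whether the identifier names the chromosome of the microRNA (571), another chromosome (34) or none (37). The 1 probe set whose microRNA had no entry in RefSeq is not drawn. Of the 31 probe sets at a level of 12 or more, 30 lie above 0, and all 8 that were lower lie between 4.33 and 10.46.

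The remaining higher probe sets were Mir466k, Mir7055 and Mir5615-1. Mir466k, on chromosome 3 outside the large cluster, read 12.39, 12.73 and 12.56 on the arrays labelled ATF3-CKO and 11.89, 11.41 and 11.47 on the WT arrays, without overlap (difference 0.97, SE 0.15, adjusted p = 0.0236). Its call was lost without WT 3 (adjusted p = 0.0517), ATF3-CKO 2 (adjusted p = 0.0924) or ATF3-CKO 3 (adjusted p = 0.108). Mir7055, in the glutamate transporter gene Slc17a7, read 5.21, 5.39 and 5.45 on the arrays labelled ATF3-CKO and 4.86, 4.95 and 4.76 on the WT arrays (difference 0.49, SE 0.10, adjusted p = 0.0472), and passed in none of the 6 fits without 1 array (adjusted p from 0.0574 to 0.168), nor with quantile normalization (0.102) or median-centring (0.108). Slc17a7 lay below the median level, with a difference of 0.09 (adjusted p = 0.672). Mir5615-1 was the 1 call among the 294 probe sets not above the median level (0.340%, background 0.194%). It read 3.64, 3.92 and 3.81 on the arrays labelled ATF3-CKO and 3.06, 3.32 and 3.09 on the WT arrays (difference 0.63, SE 0.11, adjusted p = 0.0349), and its call held only without WT 2 among the 6 omissions (highest adjusted p = 0.135, without ATF3-CKO 3). It missed with quantile normalization (0.0508) and with median-centring (0.0658).

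Large differences that did not pass came with wide spread. The largest positive one, 1.77, was that of a Mir669b probe set on chromosome 3, with 9.09, 3.99 and 4.83 on the arrays labelled ATF3-CKO and 2.62, 3.48 and 6.51 on the WT arrays. Its groups overlapped and a single high array set its mean (SE 1.48, adjusted p = 0.602). Mir101c read 8.01, 7.71 and 7.53 on the arrays labelled ATF3-CKO against 7.23, 5.66 and 7.35 on the WT arrays, with WT 2 far below the rest (difference 1.00, adjusted p = 0.28). Mir1938 read 5.41, 4.43 and 4.91 against 6.21, 5.29 and 6.42 on the WT arrays, which overlapped (difference -1.05, adjusted p = 0.17).

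Of 48 microRNA genes linked to macrophage function, 24 could be read alone. Another 23, Mir21a, Mir155 and Mir223 among them, were named only beside other symbols. Of the 24, 13 lay above the median level, 1 was higher (Mir146) and 0 were lower, with a median difference of -0.05 against 0.06 over all probe sets. At an unadjusted p under 0.05, 2 were higher and 3 lower (background 11.6% and 6.20%). The 3 lower were Mir29a, Mir27a and Mir24-2.

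Mir29a, whose microRNA represses collagen messages, read 7.38, 6.79 and 7.39 on the arrays labelled ATF3-CKO and 7.85, 7.56 and 7.94 on the WT arrays. The groups did not overlap, but the difference of -0.60 missed the threshold (SE 0.18, adjusted p = 0.151). Its neighbour Mir29b-1 was at -0.13 (adjusted p = 0.802), a sign that turned without WT 3. The cluster of Mir23a, Mir27a and Mir24-2, known to be expressed as 1 transcript, had differences of -0.28, -0.46 and -0.31 (adjusted p = 0.575, 0.227 and 0.162). Mir27a read 8.21, 8.35 and 8.23 on the arrays labelled ATF3-CKO and 8.62, 9.12 and 8.43 on the WT arrays, without overlap.

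Mir142, a marker of blood cells, read 7.60, 7.86 and 7.84 on the arrays labelled ATF3-CKO and 7.84, 8.34 and 7.84 on the WT arrays, which overlapped (difference -0.24, adjusted p = 0.495). Mir221, whose microRNA represses a cell cycle inhibitor, read 5.35, 5.09 and 5.23 against 5.60, 6.34 and 5.33 on the WT arrays, with WT 2 standing above the rest (difference -0.53, adjusted p = 0.314). Mir210, the microRNA gene best known for its induction by hypoxia, was close to the median level with 4.56, 4.47 and 4.47 on the arrays labelled ATF3-CKO and 4.61, 4.57 and 4.43 on the WT arrays (difference -0.04, adjusted p = 0.863). Mir34a, a target of p53, differed by 0.12 (adjusted p = 0.739), Mir511 by 0.16 (adjusted p = 0.514) and Mir181a-2 by -0.04 (adjusted p = 0.915). Mir342 was at -0.06 (adjusted p = 0.94), with replicate 2 the highest of each group at 7.92 on the array labelled ATF3-CKO and 8.02 on the WT array.

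The genes that process microRNAs and carry out silencing were measured for 29 of 34. Of these, 27 lay above the median level, 0 were called in either direction by limma, and the median difference was -0.01. Before adjustment, 2 higher and 2 lower genes had a p under 0.05 (background 11.6% and 6.20%). Drosha read 8.61, 8.73 and 8.71 on the arrays labelled ATF3-CKO and 8.45, 8.53 and 8.61 on the WT arrays (difference 0.16, adjusted p = 0.388). Dicer1 read 10.22, 10.04 and 10.09 against 10.25, 10.31 and 10.29 on the WT arrays (difference -0.17, adjusted p = 0.341). Drosha overlapped between the groups by a tie at 8.61 and Dicer1 did not overlap. Tent2, a poly(A) polymerase that extends RNA tails, had the smallest p of the list (difference 0.38, adjusted p = 0.102), followed by Zc3h12a, the Regnase-1 gene (-0.35, adjusted p = 0.136). Ago2, which holds the mature strand, was at -0.28 (adjusted p = 0.21).

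The let-7 genes, whose products share a seed, showed 0 calls among 11 probe sets, of which 4 lay above the median level. The median difference was 0.00. Mirlet7d was the brightest, with 10.47, 9.98 and 9.91 on the arrays labelled ATF3-CKO and 9.97, 10.20 and 10.72 on the WT arrays, which overlapped (difference -0.18, adjusted p = 0.742). Mirlet7a-1, from the same cluster, read 5.65, 5.72 and 5.74 against 5.92, 6.00 and 6.78 on the WT arrays. Its groups did not overlap and its difference of -0.53 did not pass (adjusted p = 0.268). The imprinted microRNA clusters of chromosome 12, read by 41 probe sets, were mostly dim, with 12 above the median level and 0 called, and differences between -0.15 and 0.33.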

How the data were processed

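The labels give the 6 arrays as Affymetrix Clariom D for mouse (the methods name Clariom S, but the probe set identifiers are those of Clariom D). The authors made the deposited log2 values with RMA in Affymetrix Expression Console, with global scaling per the methods. The sources used here give no software version, genome build or annotation release. Of 72688 rows, 6732 controls were left out.

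The contrast ATF3-CKO minus WT was fitted in limma 3.58.1 under R 4.3.3 with lmFit and a two-sided eBayes test, with no further term. Benjamini-Hochberg adjustment ran over 65956 probe sets with a threshold of 0.05. Every adjusted p in the text is from this fit unless an omitted array or another setting is named. The fit was tested on simulated data. Arrays give no read depth, so their number limits the precision. An exact permutation test of 3 against 3 arrays cannot reach the threshold and was not used.

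Symbols came from the platform annotation. Containing genes, chromosomes and clusters came from RefSeq positions (GRCm38.p6), used only for neighbourhood. A further 541 probe sets name a microRNA among several symbols. These were left out under the rule of exactly 1 symbol (5 higher and 9 lower). In 281 of them the symbols were 2 spellings of the same microRNA, and of these 2 were higher and 0 lower. Genes named are all microRNA probe sets that passed, the 8 brightest, the macrophage-linked ones above the median level, called hosts, clusters with several calls and Atf3. Genes containing a called microRNA, uncalled large differences, Mir680, Mir684, let-7, the miR-30 family, Mir146b, Mir139, Mir33, Mir6896 and the processing genes were named after values were seen. The members and lists were chosen with earlier results of these data known.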

Additional observations from a re-analysis of the deposited data

How the results depend on the processing

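Counts of calls moved with the processing, and the cause was not tested. The 11 higher microRNA probe sets became 7 with quantile normalization or median-centring, 29 with array weights, 5 at a fold of 2 or more with no p, and 5 without the multicopy families. They became 6 with only probe sets on the chromosome of their microRNA, an alternative chosen after seeing the data. Leaving out 1 array gave 1 to 8, the lowest without ATF3-CKO 3 and then 2 without ATF3-CKO 2. The 8 lower ones became 14 with array weights, 4 at a fold of 2 or more, and 2 to 7 when 1 array was left out, with 2 without WT 1 or ATF3-CKO 3. With array weights the macrophage-linked list had 1 lower gene and the processing genes 1 higher and 1 lower. Mir146, the call of the macrophage-linked list, made its count 0 to 1 over the omissions. The 2 lower host genes became 1 with quantile normalization, with the replicate block and with eBayes trend and robust settings, and 1 to 3 over the omissions, 1 without any array but WT 3.

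The replicate numbers share only a number, since arrays with the same number did not deviate together (r = 0.032, -0.088 and -0.075). With the replicate number as a block, 14 microRNA probe sets were higher and 7 lower. Of the 11 higher calls 3 were lost with the block, Mir466k (adjusted p = 0.0642), Mir466h (0.103) and Mir7055 (0.1), and of the 8 lower calls 2, Mir30d (0.0591) and Mir5123 (0.0635). Srebf2 was lost with it too (0.0815).

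Small differences changed sign. Mir3473a was -0.01 with quantile normalization, -0.07 with median-centring and -0.05 to 0.07 over the omissions. With quantile normalization Mir3470b was -0.02 and Mir692-1 -0.15, and Mir34a was -0.05 with array weights. Over the omissions, Mir692-1 ran from -4.1e-03 to 0.22, Mir181a-2 from -0.20 to 0.08, Mir34a from -1.3e-03 to 0.25, Mir29b-1 from -0.26 to 0.12, Mir210 from -0.09 to 1.3e-03 and Mir342 from -0.35 to 0.24. The 349 probe sets above the median level were 328 when every array had to exceed it and 349 to 352 over the omissions. Atf3 kept its direction and its call in all alternatives run, from 0.68 to 0.81.

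With 3 arrays per group and most microRNA probe sets not above the brightest background control, a miss does not show that a microRNA was unchanged.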
